A study of Mus musculus with 15 samples.

Results

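Interneurons that use the vesicular glutamate transporter VGT3 were compared with interneurons that make the peptide somatostatin (Sst), gene by gene, in the cytosol of single cells. The members are the 5 VGT3+ cells and the 5 Sst+ cells of the series, taken by their labels, which makes 10 of its 15 libraries. The other 5 came from parvalbumin cells and were not used here. Cytosol was drawn through a patch pipette from neurons of area CA1 in organotypic slice cultures, slices of hippocampus kept alive for days, made from C57BL/6J mice of either sex and 6 to 7 days of age. Cells were recognised by the red fluorescent protein TdTomato. In VGT3+ cells it was switched on by a Cre recombinase driven from Slc17a8, the gene of VGT3, and in Sst+ cells by one driven from Sst. Both Cre lines were crossed to the same reporter line. The paper reports some Cre expression outside the intended cells for the Sst line. For both lines it counted reporter-positive cells that lacked the marker, and for the VGT3 line also those that stained for parvalbumin or somatostatin. In its map with cells of a public hippocampus dataset, the VGT3+ cells lay scattered close to groups marked by Sncg (gamma-synuclein) and by Sst. Type, mouse line, animal and culture cannot be told apart, since each type came from its own line and no animal or culture is named. Each type therefore counted as 1 sample. No test was made, and all differences below describe these 10 cells. Library batch G709 held VGT3+ cells 4 and 5 and all Sst+ cells, and VGT3+ cells 1 to 3 belonged to batch G556, so differences were also computed with only the 2 VGT3+ cells of G709 (below, within the batch).

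Both types are GABAergic, but they differ in birthplace and in wiring. Interneurons of the VGT3 and cholecystokinin (Cck) class come from the caudal ganglionic eminence of the embryo, contact the cell bodies and proximal dendrites of pyramidal cells, and carry the CB1 cannabinoid receptor on their terminals, through which endocannabinoids silence release. Somatostatin interneurons of CA1 come from the medial ganglionic eminence, sit mostly in the stratum oriens and send axons to the distal dendrites of pyramidal cells. Somatostatin transcription is driven by cyclic AMP through CREB, the factor that binds the cyclic AMP response element TGACGTCA.

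The genes behind the labels lay where the labels place them. Slc17a8 (ENSMUSG00000019935; GRCm38 chr10:89574020-89621253, minus strand) was at 198, 206, 106, 233 and 354 TPM in the VGT3+ cells, numbered 1 to 5, against 0, 0.0236, 0, 0 and 0.0516 TPM in Sst+ cells 1 to 5. TPM, transcripts per 1000000, is the share of a cell's length-corrected reads that falls on a gene. Sst (ENSMUSG00000004366; chr16:23889573-23890958, minus strand) was at 0.348, 0.271, 0, 0 and 0 TPM in VGT3+ cells, against 2689, 3690.1, 4539, 2773 and 1804 TPM in Sst+ cells. Since these genes drive the Cre recombinases that marked the cells, their separation checks the labels and is no finding. Cnr1 (ENSMUSG00000044288; chr4:33924593-33948831, plus strand), the CB1 receptor gene, did not mark the cells. It was at 861, 3055, 3210.0, 1446 and 4702 TPM in VGT3+ cells, against 0.455, 203, 10.8, 87.7 and 76.8 TPM in Sst+ cells. All VGT3+ cells lay above all Sst+ cells, and 4 of 5 Sst+ cells nonetheless held over 10 TPM of it.

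The Sst promoter is shown with its cyclic AMP response element, beside the 4 other genes whose cells did not overlap between types and whose upstream window held the same letters. Sequences are RefSeq windows of GRCm38.p6 on the strand of the gene, with TGACGTCA in capitals and 11 bases on either side.

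Sst (chr16:23890874-23890903, minus strand): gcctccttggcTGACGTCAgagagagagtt
Cope (chr8:70302546-70302575, plus strand): gcggaggaatgTGACGTCAcggagagaccc
Rpl18 (chr7:45717981-45718010, plus strand): tcgcgctcatgTGACGTCAcccgtgcacca
Msi2 (chr11:88718428-88718457, minus strand): aacggggtgcgTGACGTCAccgcattggtt
Smdt1 (chr15:82345889-82345918, plus strand): cgtccttctccTGACGTCActacgtcgtcc

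In Sst the element began 48 bases before the start that RefSeq gives. The gene models of GENCODE M21, from which the gene spans here are taken, reach further upstream, and all 5 stretches lie inside them. Cope, a subunit of the COPI vesicle coat, and Rpl18, a ribosomal protein gene, were higher in every Sst+ cell, whereas Msi2, an RNA-binding protein, and Smdt1, a subunit of the mitochondrial calcium uniporter, were higher in every VGT3+ cell. Cope ranged over 52.3 to 198 TPM in VGT3+ cells and over 207 to 531 TPM in Sst+ cells, and Rpl18 at 9.99 to 93.4 TPM in VGT3+ cells and 115 to 154 TPM in Sst+ cells. Msi2 ranged over 8.15 to 44.8 TPM in VGT3+ cells and over 0 to 3.58 TPM in Sst+ cells, and Smdt1 at 41.6 to 111 TPM in VGT3+ cells and 0.32 to 38.6 TPM in Sst+ cells. Within the 250 bases before a start, read on both strands (TGACGTCA reads the same on each), the element stood in 508 of 32851 RefSeq windows (1.55%). Of the 8248 genes averaging 1 TPM or more that had a window, 263 held it in any window (3.19%). The first share counts windows and the later ones count genes, so the first is not to be set against them. Of the genes with every Sst+ cell above every VGT3+ cell, 3 of the 81 with a window held it (3.7%), and of those with every VGT3+ cell above every Sst+ cell, 2 of 47 (4.26%). The 3 include Sst, which marked the cells and is the gene for which the element was chosen. The 3.7% is therefore not to be read as above the 3.19%. The shorter runs TGACG or CGTCA stood in 32 of the 81 (39.5%) and 12 of the 47 (25.5%), against 31.7% of the 8248 genes. A match is a run of letters and not a bound site.

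Across the transcriptome, differences were taken as VGT3+ minus Sst+ of the mean log2(TPM + 1), a scale on which 2 stands for a fold of about 4 and which understates the fold of low genes. Of 12291 genes averaging 1 TPM or more over the 10 cells, 1040 were higher in VGT3+ cells by 2 or more (8.46%) and 1052 were higher in Sst+ cells by 2 or more (8.56%). Single cells scatter widely: the SD over cells of the log2 value had a median of 1.92 in VGT3+ cells and 1.87 in Sst+ cells, so a difference of 2 alone is about as large as the spread between cells of 1 type. A stricter description asks that the cells of the types do not overlap. It was met by 79 genes with every VGT3+ cell above every Sst+ cell (0.643%) and by 116 genes with every Sst+ cell above every VGT3+ cell (0.944%), together 1.59% of genes, and 61 (0.496%) and 98 (0.797%) of these also differed by 2 or more. Genes above 0 in all cells of 1 type and listed at 0 in all cells of the other numbered 14 for VGT3+ cells and 21 for Sst+ cells. The median difference over the 12291 genes was -0.045. TPM sum to the same total in every cell, so this median says nothing of the total RNA of either type. Shares of list members below are of members averaging 1 TPM or more, and each is to be set against the 8.46% and 8.56% of all genes. Counts of list members without overlap are likewise to be set against the 0.643% and 0.944% of all genes. The lists were chosen with earlier results of these data known, so their shares are a description and no independent check of cell identity. With only the VGT3+ cells of batch G709, 842 of the 1040 genes and 858 of the 1052 kept a difference of 2 or more in the same direction, and 23 and 20 changed sign. Of the 99 genes followed one by one that had a difference of 2 or more, 9 were under 2 within the batch, and those values are given. The other 90 were past 2 in the same direction, whether or not the value within the batch is printed. Without some single cell 14 of the 99 were under 2, and none changed sign.

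Sequencing depth, estimated from the values, ran, in units of 1000000 reads on genes, between 15.8 and 32.2 in VGT3+ cells (median 17.0) and between 14.1 and 22.5 in Sst+ cells (median 19.0). A gene of 2000 bases with 3 reads would stand at 0.122 to 0.252 TPM in a VGT3+ cell and 0.167 to 0.259 TPM in an Sst+ cell, which is the level that a listed 0 allows from counting error alone. Between 5463 and 9577 genes were above 0 in a VGT3+ cell and between 7226 and 10191 in an Sst+ cell. Genes that most cells use were also listed at 0 in some cells, so a 0 can be a transcript lost before sequencing, and each cell's value is given in place of a mean. Reads carried no molecular identifiers.

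The genes that set the VGT3+ cells apart most were led by a calcium pump regulator and a serotonin receptor subunit. Sln, which encodes sarcolipin, a small protein that inhibits the SERCA calcium pump, stood at 4919, 875, 1248, 2470.1 and 5189 TPM in VGT3+ cells, against 0, 0, 0, 105 and 0 TPM in Sst+ cells (difference 9.84, 10.46 within batch G709). The single Sst+ cell with Sln still lay below every VGT3+ cell. Htr3a, a subunit of the serotonin receptor that is an ion channel, was at 241, 427, 231, 1221 and 1179 TPM in VGT3+ cells and listed at 0 in every Sst+ cell (difference 9.00, 10.23 within the batch). Necab1, a neuronal calcium-binding protein, was at 84.8, 56.5, 1255, 322 and 298 TPM in VGT3+ cells, with VGT3+ cell 3 highest, against at most 0.277 TPM in Sst+ cells (difference 7.74, 8.20 within the batch). Kctd16, an auxiliary subunit of the GABA-B receptor, was at 47.9, 67.5, 87.5, 237 and 118 TPM in VGT3+ cells and listed at 0 in every Sst+ cell (difference 6.59, 7.40 within the batch). Sez6, a neuronal membrane protein with complement-like domains, was at 166, 401, 90.6, 64.3 and 164 TPM in VGT3+ cells, against 0.119, 0.0386, 0, 25.9 and 0 TPM in Sst+ cells (difference 6.20, 5.70 within the batch). The CB1 receptor gene Cnr1 had a difference of 6.23 (6.44 within the batch), and Adarb2, a member of the RNA-editing enzyme family used as a marker of the caudal eminence, had one of 5.59 (4.21 within the batch).

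Genes of general cell function stood in the same group. Ppp1r2, an inhibitor of protein phosphatase 1, was at 42.8, 21.3, 146, 122 and 111 TPM in VGT3+ cells, against 0, 0, 0.581, 0 and 0.576 TPM in Sst+ cells (difference 5.91). Pex5, the import receptor of peroxisomes, was at 21.8, 28.6, 147, 147 and 112 TPM in VGT3+ cells, against 0, 0.0283, 0, 1.18 and 0 TPM in Sst+ cells (difference 5.90). Most cells use both genes, and both were above 20 TPM in every VGT3+ cell. The predicted gene Gm10767 was at 6.33, 192, 43.9, 66.1 and 71 TPM in VGT3+ cells and at most 0.0756 TPM in Sst+ cells (difference 5.62). Outside the rule by which genes were named, Col25a1, a transmembrane collagen, was at 187, 157, 139.9, 166 and 262 TPM in VGT3+ cells, against 10.5, 0.772, 0, 16.5 and 11.2 TPM in Sst+ cells (difference 5.06) and varied little among the VGT3+ cells. Pls3, the actin-bundling protein plastin 3, was at 82.9, 129.6, 266, 240.1 and 255 TPM in VGT3+ cells, against 0.0407, 0, 18.9, 17.3 and 19.9 TPM in Sst+ cells (difference 4.89).

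**Figure D1:**
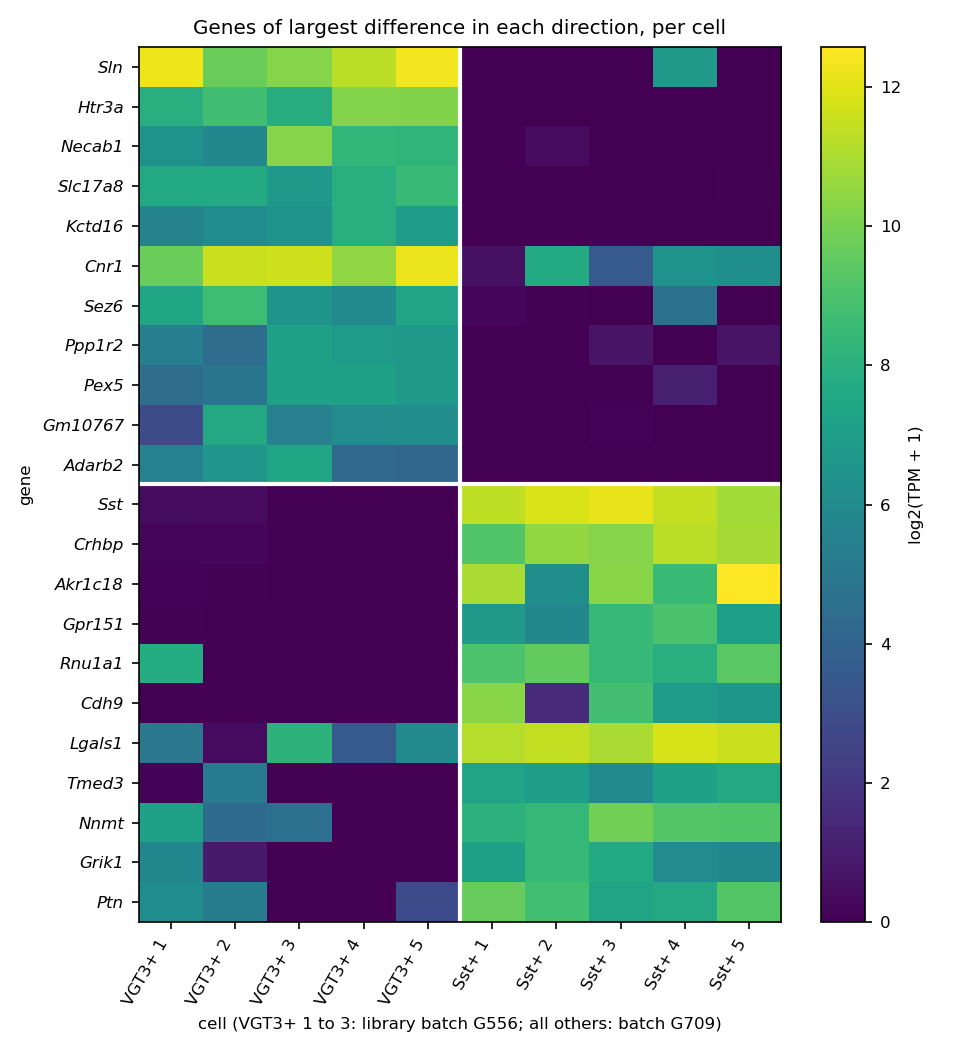
Colour gives log2(TPM + 1) per cell (columns, VGT3+ cells left, Sst+ cells right) for genes reported here out of the 12 of largest difference in each direction (rows) among genes whose cells did not overlap and whose difference was 2 or more within batch G709 too. The upper block is bright in most VGT3+ cells and dark in most Sst+ cells. Exceptions include Gm10767 at 6.33 TPM in VGT3+ cell 1, Sln at 105 TPM in Sst+ cell 4 and Cnr1 at up to 203 TPM in Sst+ cells. The lower block shows the reverse. Its exceptions include Cdh9 at 1.84 TPM in Sst+ cell 2, Lgals1 at 283 TPM in VGT3+ cell 3 and Rnu1a1 at 222 TPM in VGT3+ cell 1.

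Sst+ cells were set apart by a peptide-binding protein, a steroid enzyme and an orphan receptor beside Sst itself. Crhbp, the secreted protein that binds corticotropin-releasing hormone, was at 0.186, 0.145, 0, 0 and 0 TPM in VGT3+ cells, against 566, 1490.3, 1251, 2475 and 1879.5 TPM in Sst+ cells (difference -10.34, -10.43 within batch G709). Akr1c18, an enzyme that inactivates progesterone, was at no more than 0.0864 TPM in VGT3+ cells, against 2015, 75.2, 1314, 364 and 6116 TPM in Sst+ cells (difference -9.69). The Sst+ cells themselves differed widely, with cell 2 lowest and cell 5 highest. Gpr151, an orphan G-protein-coupled receptor, was at no more than 0.0639 TPM in VGT3+ cells, against 108, 55.7, 348, 499 and 136 TPM in Sst+ cells (difference -7.40). Cdh9, a classical cadherin of synaptic adhesion, was listed at 0 in all VGT3+ cells, against 1294, 1.84, 449, 125 and 99.2 TPM in Sst+ cells (difference -6.86), with Sst+ cell 2 far below the other 4. Lgals1, the sugar-binding protein galectin-1, was at 30.2, 0.305, 283, 10.9 and 64.4 TPM in VGT3+ cells, against an even 2330.3, 2734, 2041, 3659 and 3053 TPM in Sst+ cells (difference -6.78).

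Further genes of this group had VGT3+ cells with clear signal that still lay under every Sst+ cell. Nnmt, which methylates nicotinamide, was at 146, 19.9, 23.1, 0 and 0 TPM in VGT3+ cells, against 274, 329, 965, 589 and 569.6 TPM in Sst+ cells (difference -5.71, -8.95 within the batch, where both VGT3+ cells were listed at 0). Ptn, the growth factor pleiotrophin, was at 68.5, 37.3, 0, 0 and 5.98 TPM in VGT3+ cells, against 805, 429.8, 162, 192 and 585 TPM in Sst+ cells (difference -5.67, -7.11 within the batch). Tmed3, a protein of vesicle traffic from the endoplasmic reticulum, was at 0.0732, 35.2, 0, 0 and 0 TPM in VGT3+ cells, against 164, 128, 64.5, 144 and 189 TPM in Sst+ cells (difference -5.97). Rnu1a1, a U1 small nuclear RNA of 164 bases, was at 222, 0, 0, 0 and 0 TPM in VGT3+ cells, against 517, 750.3, 346, 235 and 662 TPM in Sst+ cells (difference -7.29). For so short a gene, TPM rises steeply with each read. Outside the naming rule, Car10, a secreted protein related to carbonic anhydrases that binds neurexins, was listed at 0 in all VGT3+ cells, against 137, 27.5, 14.4, 38.8 and 30.2 TPM in Sst+ cells (difference -5.23), and Lypd6, a modulator of nicotinic receptors, was at 0, 7.67, 0, 0 and 0 TPM in VGT3+ cells, against 91.2, 52.2, 57.4, 77.4 and 25.9 TPM in Sst+ cells (difference -5.21).

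Markers of Cck/Sncg cells were higher in VGT3+ cells in most of their members, and markers of Sst cells were higher in Sst+ cells in fewer of theirs. Of 11 Cck/Sncg interneuron markers, all 11 had a positive difference, 9 were higher in VGT3+ cells by 2 or more and 5 did not overlap, with a median difference of 4.68 (4.75 within batch G709). Without Slc17a8, which marked the cells, 8 of 10 were higher by 2 or more (80%, against 8.46% of all genes) and 4 did not overlap, with a median of 4.63. Beside Slc17a8, Cnr1 and Htr3a these were Trp53i11, at 28.8, 45.7, 24.8, 6.98 and 86.2 TPM in VGT3+ cells against 0, 0, 0, 0.323 and 0 TPM in Sst+ cells, and Fxyd6, a modulator of the sodium pump, at 828, 1912, 1392, 2360.5 and 3873 TPM in VGT3+ cells against 0.0963, 479, 129.7, 141 and 273 TPM in Sst+ cells (difference 4.57, 3.04 without Sst+ cell 1). Sncg, the gene of gamma-synuclein, had a difference of 3.71 that was 1.92 without VGT3+ cell 3 and 0 within the batch, since both VGT3+ cells of G709 and all Sst+ cells were listed at 0. Of 17 markers of Sst interneurons, 6 stood higher in Sst+ cells by 2 or more, 4 of them without overlap (among them Sst, Crhbp and Reln), and 1, Calb1, was higher in VGT3+ cells, for a median of -1.05 (-1.18 within the batch). Without Sst, which marked the cells, 5 of 16 were higher in Sst+ cells, 3 of them without overlap, with a median of -0.99. These were 41.7% of the 12 averaging 1 TPM or more, against 8.56% of all genes. Reln, the secreted matrix protein reelin, was at 0.373, 0.0041, 34, 0 and 0 TPM in VGT3+ cells, against 115, 89.4, 62.3, 118 and 86.6 TPM in Sst+ cells (difference -5.42). Npy, the gene of neuropeptide Y, had a difference of -11.06 but overlapped, since VGT3+ cell 2 held 9121 TPM, and VGT3+ cells 4 and 5 were listed at 0.

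Subclass markers of Sst cells did not all appear. Chrna2, the nicotinic subunit that marks oriens-lacunosum moleculare cells, was listed at 0 in all VGT3+ cells and at 0, 0, 0, 0.135 and 0 TPM in Sst+ cells. Elfn1, a postsynaptic protein of such cells, was at 0, 6.04, 0, 0 and 0 TPM in VGT3+ cells, against 14.8, 0.292, 0, 0.841 and 2.74 TPM in Sst+ cells. Nos1, which marks a long-range subclass, reached 1.72 TPM in a VGT3+ cell and 2.86 TPM in an Sst+ cell. Calb2, the gene of calretinin, was listed at 0 in all VGT3+ cells and at 42.6, 0, 136, 0.25 and 33.2 TPM in Sst+ cells, whereas calbindin's Calb1 was at 167, 22.4, 0, 409 and 217 TPM in VGT3+ cells, against 0, 0, 0, 2.83 and 0.0251 TPM in Sst+ cells (difference 5.28). These 5 genes fall outside the naming rule.

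Genes of embryonic origin separated in part of each list. Of 9 genes of the caudal ganglionic eminence, 3 were higher in VGT3+ cells by 2 or more (Adarb2, Nr2f2 and Sp8), none was higher in Sst+ cells, and the median was 0.57 (1.01 within batch G709, 1.10 without VGT3+ cell 4). The 3 were 42.9% of the 7 averaging 1 TPM or more, against 8.46% of all genes. Sp8, a zinc finger transcription factor, was at 1.63, 44.1, 19.1, 0.682 and 24.9 TPM in VGT3+ cells and listed at 0 in every Sst+ cell (difference 3.33). The nuclear receptor gene Nr2f2 was at 35.3, 33.2, 123, 0.389 and 41 TPM in VGT3+ cells, against 0, 0, 0, 0.098 and 0.576 TPM in Sst+ cells, with VGT3+ cell 4 below Sst+ cell 5. Of 12 genes of the medial eminence, 4 were higher in Sst+ cells (among them Nxph1, Sox6 and Lhx6), and the median was -1.07 (-0.36 within the batch, -0.67 without VGT3+ cell 3). The 4 were 40% of the 10 averaging 1 TPM or more, against 8.56% of all genes. Sox6, a transcription factor of maturing medial eminence cells, was at 3.12, 6.1, 0, 0 and 0 TPM in VGT3+ cells, against 81.1, 50.6, 9.77, 15.8 and 23.3 TPM in Sst+ cells (difference -3.86). Lhx6, the factor that defines the lineage, was listed at 0 in all VGT3+ cells and at 87.4, 29.8, 0.394, 12.6 and 0 TPM in Sst+ cells, 1 of which was listed at 0. Mef2c, a transcription factor of maturing interneurons, overlapped at 51.1 to 256 TPM in VGT3+ cells and 9.56 to 128 TPM in Sst+ cells (difference 1.04). The 1 gene of this list higher in VGT3+ cells by 2 or more was Dlx6os1, a non-coding RNA of the Dlx locus found in most forebrain interneurons, at 68.5, 93.4, 188, 0 and 142 TPM in VGT3+ cells, against 0, 2.46, 0, 24 and 0 TPM in Sst+ cells (difference 4.19).

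Neuropeptide genes were among those that separated the types. Of 20 precursor genes, 6 were listed at 0 in all 10 cells, 4 were higher in Sst+ cells (Sst, Npy, Pnoc and Vgf) and 2 in VGT3+ cells (Cck and Tac2). Without Sst, which marked the cells, these were 30% and 20% of the 10 averaging 1 TPM or more, against 8.56% and 8.46% of all genes. Pnoc, the precursor of the opioid-like peptide nociceptin, was at 30.8, 1.47, 16, 2.56 and 27.2 TPM in VGT3+ cells, against 269, 433, 578, 803 and 725 TPM in Sst+ cells (difference -5.63, -5.71 within batch G709). Vgf, a secreted protein of peptide granules, was listed at 0 in all VGT3+ cells and was at 43.3, 32.4, 0.173, 43.6 and 44.7 TPM in Sst+ cells (difference -4.35). Calca, the gene of calcitonin gene-related peptide, was at 212, 47486, 0, 0 and 75.1 TPM in VGT3+ cells, against 286, 3879, 0.929, 862 and 281 TPM in Sst+ cells (difference -1.88, -4.66 within the batch). Its range within the VGT3+ cells, from 0 to 47486 TPM in VGT3+ cell 2, covered all Sst+ cells.

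A few receptors for such peptides were higher in VGT3+ cells, and Oprl1 was higher in Sst+ cells. Npy1r, a receptor for neuropeptide Y, was at 33.5, 354, 62.2, 144 and 131 TPM in VGT3+ cells, against 0, 0, 7.32, 8.08 and 0 TPM in Sst+ cells (difference 5.51) with no overlap. Npy5r, another such receptor, was at 0, 98.5, 127, 0 and 65.8 TPM in VGT3+ cells and listed at 0 in all Sst+ cells (difference 3.94). Sstr2, a somatostatin receptor, was at 0, 64.1, 74.9, 0 and 1.65 TPM in VGT3+ cells and listed at 0 in all Sst+ cells (difference 2.74, 0.70 within the batch, 1.86 without VGT3+ cell 3). Oprl1, the receptor for nociceptin, was at 2.06, 2.29, 0, 0 and 48.9 TPM in VGT3+ cells, against 25.2, 0.178, 77.8, 34.6 and 19.8 TPM in Sst+ cells (difference -2.36, -1.33 within the batch, -1.82 without Sst+ cell 3). Npy5r and Sstr2 were each listed at 0 in 2 of the VGT3+ cells. Npy5r, Sstr2 and Oprl1 fall outside the naming rule. Adcyap1r1, the receptor for the peptide PACAP and the most abundant of its list, overlapped, at 6.4 to 142 TPM in VGT3+ cells and 13 to 129 TPM in Sst+ cells (difference -0.071, 1.22 within the batch). Among 33 receptors for catecholamines, peptides and opioids, 15 were listed at 0 in all 10 cells, 4 were higher in VGT3+ cells and 2 in Sst+ cells (36.4% and 18.2% of the 11 averaging 1 TPM or more), and the median was 0.

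Serotonin and acetylcholine receptors added further genes of the VGT3+ cells. Of 27 receptors, 9 were listed at 0 in all cells, 3 were higher in VGT3+ cells (Htr3a, Htr1a and Chrna3) and 1 in Sst+ cells (Chrnb3). These were 21.4% and 7.14% of the 14 averaging 1 TPM or more. Htr1a, the inhibitory serotonin receptor, was at 62, 28.7, 0, 70.9 and 141 TPM in VGT3+ cells and listed at 0 in all Sst+ cells (difference 4.84, 6.66 within the batch). Chrna3, a nicotinic subunit, was at 27.9, 56.3, 0, 0 and 112 TPM in VGT3+ cells and listed at 0 in all Sst+ cells. In the endocannabinoid pathway, which runs from synthesis of lipid messengers to the CB1 receptor and their breakdown, 2 of 11 genes were higher in VGT3+ cells by 2 or more, Cnr1 and the hydrolase gene Abhd6, and none in Sst+ cells. The 2 were 25% of the 8 averaging 1 TPM or more, against 8.46% of all genes. Abhd6 was at 195, 137, 246, 0 and 33.8 TPM in VGT3+ cells, against 0, 0.259, 0, 117 and 109.8 TPM in Sst+ cells. Its difference of 2.76 was -0.24 within the batch and 4.15 without VGT3+ cell 4. Abhd12, another hydrolase, was at 53.7, 105, 0, 132 and 223 TPM in VGT3+ cells, against 82.8, 57.4, 0, 90 and 106 TPM in Sst+ cells, a difference of 0.38 with overlap that was 2.33 within the batch and ran from -0.90 to 1.74 when any 1 cell was left out. Cnr1 was the 1 gene of the 11 that separated all cells.

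Genes of GABA synthesis were present in all 10 cells. Gad1, one of the GABA-synthesising enzymes, was at 313, 366, 491, 203 and 776 TPM in VGT3+ cells, against 27, 68.5, 191, 203 and 113 TPM in Sst+ cells (difference 2.00, 2.03 within batch G709, 1.55 without Sst+ cell 1). The lowest VGT3+ cell and the highest Sst+ cell lay next to each other near 203 TPM, in cell 4 of each type. Gad2, the other enzyme, overlapped, at 191, 145, 921, 704 and 472 TPM in VGT3+ cells and 349, 167, 316, 249 and 259 TPM in Sst+ cells. Abat, which breaks GABA down, was at 82.9, 82.7, 261, 199 and 446 TPM in VGT3+ cells, against 0.0445, 0, 62.4, 65 and 60.4 TPM in Sst+ cells (difference 3.85). Slc12a5, the chloride extruder KCC2, was at 0, 48.3, 1.81, 31.9 and 81.8 TPM in VGT3+ cells, against 135, 149.7, 51, 27.5 and 40.8 TPM in Sst+ cells (difference -2.34, -0.34 within the batch, -1.42 without VGT3+ cell 1, outside the naming rule). Of 10 genes of glutamate transport and synthesis, Slc17a8 was among those higher in VGT3+ cells, and the astrocytic transporters Slc1a2 and Slc1a3 were higher in Sst+ cells, while Glul, which makes glutamine, overlapped at 45.9 to 278 TPM in VGT3+ cells and 78.4 to 250.4 TPM in Sst+ cells. Without Slc17a8, which marked the cells, 14.3% of the 7 averaging 1 TPM or more were higher in VGT3+ cells and 28.6% in Sst+ cells. Over all genes the shares were 8.46% and 8.56%. On the list of 8 genes of GABA synthesis and transport, the count was 2 higher in VGT3+ cells and 1 in Sst+ cells, with a median of -0.12 (0.43 within the batch, 0.21 without VGT3+ cell 1). Of the 7 averaging 1 TPM or more these were 28.6% and 14.3%, against 8.46% and 8.56% of all genes.

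A few potassium channel genes were far higher in one type or the other. Of 47 potassium and HCN channel genes, 7 were higher in VGT3+ cells by 2 or more and 4 in Sst+ cells, 2 and 1 of them without overlap, and the median was -0.16 (0 within batch G709, -0.32 to 0 when any 1 cell was left out). These were 20% and 11.4% of the 35 members averaging 1 TPM or more, against 8.46% and 8.56% of all genes. Kcnc2, a Kv3 channel that lets cells repolarise fast, was at 6.75, 10.6, 0, 0 and 0 TPM in VGT3+ cells, against 78.8, 106, 175, 139 and 109 TPM in Sst+ cells (difference -5.59, -6.89 within the batch). Kcnip1, a partner of the A-type channels of the Kv4 family, was at 82.6, 147, 106, 17.6 and 94.3 TPM in VGT3+ cells, against 0, 0, 0.0277, 12.7 and 2.3 TPM in Sst+ cells (difference 5.12). Kcnd2, a Kv4 channel itself, was at 0, 2.84, 34.8, 100.2 and 13.9 TPM in VGT3+ cells, against 0, 0.0433, 0, 0.208 and 0 TPM in Sst+ cells, and Dpp6, another Kv4 partner, overlapped at 20.9 to 124 TPM in VGT3+ cells and 15.7 to 124 TPM in Sst+ cells. Kcnq5, of the muscarine-sensitive M channels, was at 9.29, 0.518, 0.324, 78.7 and 21.5 TPM in VGT3+ cells and listed at 0 in all Sst+ cells (difference 3.04). Kcnn2, a small-conductance calcium-activated channel, was at 37.6, 24.7, 98.3, 12.7 and 12.2 TPM in VGT3+ cells, against 1.41, 7.56, 19.3, 0.407 and 0 TPM in Sst+ cells (difference 2.98, 1.91 within the batch). Kcnd2 and Kcnn2 were chosen after their values were seen, and both overlapped.

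Among 26 sodium and calcium channel genes, none was higher in VGT3+ cells by 2 or more and 3 were higher in Sst+ cells (Cacna2d2, Cacna1a and Scn2a1). The 3 were 14.3% of the 21 averaging 1 TPM or more, against 8.56% of all genes. Cacna2d2, an auxiliary calcium channel subunit, was at 0.407, 0, 0, 4.04 and 0.888 TPM in VGT3+ cells, against 42.6, 26.4, 26, 6.38 and 9.99 TPM in Sst+ cells (difference -3.52). Cacna1a, the P/Q-type channel that triggers release at many terminals, was at 4.66, 0, 0.437, 1.34 and 0 TPM in VGT3+ cells, against 15.3, 12.4, 51.3, 3.12 and 9.64 TPM in Sst+ cells (difference -2.94, outside the naming rule). Cacna2d3 and Cacng3, the members of highest mean, overlapped, Cacna2d3 at 0 to 827 TPM in VGT3+ cells and 54.5 to 716 TPM in Sst+ cells, and Cacng3 at 0.117 to 146 TPM in VGT3+ cells and 39.4 to 190.0 TPM in Sst+ cells. Their differences were -1.22 and -1.66 (-3.82 and -0.29 within the batch). Cacng3 is on this list by its name, and its protein is an auxiliary subunit of AMPA receptors. Of 16 genes on the list headed neuronal calcium-binding proteins, Necab1, Calb1 and Sncg were higher in VGT3+ cells and S100a10, Calb2 and Vsnl1 in Sst+ cells. The heading is loose, since S100a10 is of the S100 family but does not bind calcium, and Sncg is a synuclein. For Sncg the difference was 0 within the batch. In each direction the genes past 2 on this list were 20% of the 15 averaging 1 TPM or more, against 8.46% and 8.56% of all genes. S100a10, which carries channels to the membrane, was at 188, 53.2, 2263, 0 and 96.6 TPM in VGT3+ cells, against 653, 2089.5, 367, 1465 and 379.5 TPM in Sst+ cells, and VGT3+ cell 3 held the highest value of all 10. The difference of -3.38 was -1.83 without VGT3+ cell 4, the one listed at 0.

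Some ionotropic glutamate receptor genes were higher in Sst+ cells and others in VGT3+ cells. Of 24 subunit and auxiliary genes, 5 were higher in Sst+ cells by 2 or more (Grik1, Gria3, Grik3, Grin3a and Neto1), 3 of them without overlap, and 3 were higher in VGT3+ cells (Shisa9, Grik2 and Grid1), for a median of -0.37 (-0.502 within batch G709, -0.034 without Sst+ cell 3). Of the 19 members averaging 1 TPM or more, 26.3% were higher in Sst+ cells, against 8.56% of all genes tested, and 15.8% in VGT3+ cells, against 8.46%. Grik1, which encodes the kainate receptor subunit GluK1, was at 53.5, 0.906, 0, 0 and 0 TPM in VGT3+ cells, against 141, 342, 204, 65.4 and 57.8 TPM in Sst+ cells (difference -5.70). VGT3+ cell 1 lay just under Sst+ cell 5, the lowest of its type. Gria3, the AMPA receptor subunit GluA3, was at most 0.207 TPM in VGT3+ cells, against 52, 17.8, 42.2, 80.8 and 16.6 TPM in Sst+ cells (difference -5.11, -5.04 within the batch). Grik3 was at 1.82, 1.18, 0, 0 and 0 TPM in VGT3+ cells, against 33.9, 8.13, 17.3, 15.4 and 5.09 TPM in Sst+ cells (difference -3.31). The AMPA subunit gene Gria2, which keeps receptors calcium-tight, was at 70.1, 13.9, 3.13, 81.1 and 61.4 TPM in VGT3+ cells, against 145, 171, 228, 74.9 and 48.2 TPM in Sst+ cells (difference -1.98, -0.70 within the batch), and Gria4 at 58.8, 3.87, 9.79, 31.8 and 57.1 TPM in VGT3+ cells, against 11.8, 102, 257, 119 and 99.1 TPM in Sst+ cells (difference -1.88, -0.94 within the batch). Neither reached 2. In the other direction, Shisa9, an auxiliary protein that speeds AMPA receptor desensitisation, was at 24.3, 180.4, 256, 181 and 383 TPM in VGT3+ cells, against 49.6, 3.72, 0.0337, 0 and 0 TPM in Sst+ cells (difference 5.66), with overlap only between VGT3+ cell 1 and Sst+ cell 1. Neto1, an auxiliary protein of kainate receptors, overlapped widely, at 0.148, 303, 450.1, 2.02 and 67.2 TPM in VGT3+ cells and 49, 426, 149, 216 and 143 TPM in Sst+ cells, and its difference of -2.32 was -1.12 without VGT3+ cell 1 and turned to 0.41 without VGT3+ cells 1 and 4, a setting chosen after the values were seen.

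Metabotropic glutamate receptor genes past 2 were higher in Sst+ cells. Of 12 genes of this group and of GABA-B receptors, Grm5 and Grm7 were among those higher in Sst+ cells by 2 or more, and Kctd16 was higher in VGT3+ cells. Of the 9 averaging 1 TPM or more, 33.3% were higher in Sst+ cells and 11.1% in VGT3+ cells, against 8.56% and 8.46% of all genes. Grm7, a release-limiting receptor of terminals, was listed at 0 in all VGT3+ cells and was at 24.3, 0.284, 1.58, 6.9 and 14.2 TPM in Sst+ cells (difference -2.66). Grm5, a receptor of the excitatory group I, was at 11, 10.6, 0, 42.7 and 8.41 TPM in VGT3+ cells, against 40.1, 149, 59.4, 67.1 and 6.94 TPM in Sst+ cells (difference -2.36, -1.18 within the batch, -1.57 without VGT3+ cell 3). The GABA-B receptor subunit Gabbr1, to whose complex the Kctd16 protein belongs, overlapped, at 81, 85.8, 0.193, 271 and 172 TPM in VGT3+ cells and 44.4, 37, 63, 47.6 and 37.2 TPM in Sst+ cells (difference 0.19, 2.24 within the batch). Kctd12, another partner of that receptor, was at 0.982, 73.1, 1412, 0.6 and 21.5 TPM in VGT3+ cells and 0.0569, 148, 86.3, 4.46 and 28 TPM in Sst+ cells (difference 0.35, -1.63 within the batch), and 64.2% of its exon bases overlap other gene models. Of 13 GABA-A receptor subunits, 1 was higher in VGT3+ cells by 2 or more (11.1% of the 9 averaging 1 TPM or more, against 8.46% of all genes). This was Gabra5, the subunit of extrasynaptic receptors, at 0, 89.6, 0, 66.4 and 286 TPM in VGT3+ cells, against 0, 64.2, 0, 0.0898 and 0 TPM in Sst+ cells (difference 2.92, 1.91 without VGT3+ cell 5, outside the naming rule). 

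**Figure D2:**
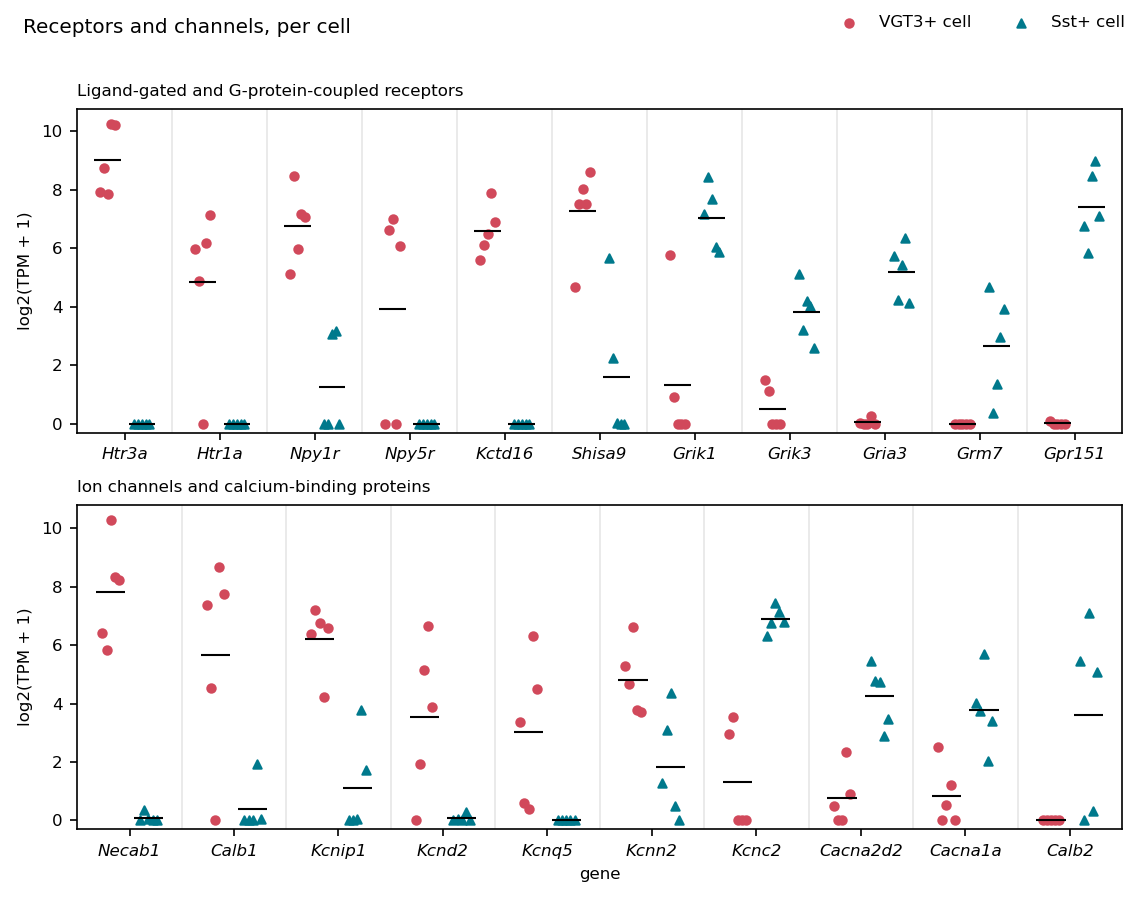
Each point is 1 cell, on a log2(TPM + 1) axis, with VGT3+ cells as circles to the left of Sst+ cells as triangles for each gene, and black lines mark the mean of 5 cells. Htr3a and Kctd16 were at 0 in all Sst+ cells and at 47.9 TPM or more in all VGT3+ cells, Gria3, Grm7 and Gpr151 were at or near 0 in all VGT3+ cells, and Kcnc2 lay above all VGT3+ cells in a narrow band of 78.8 to 175 TPM in Sst+ cells.

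Among genes of the release machinery, some were higher in each type. Of 44 genes, 4 were higher in VGT3+ cells by 2 or more (Syt5, Syt6, Syt13 and Rims1) and 4 in Sst+ cells (Rab3b, Vamp1, Unc13c and Erc2), and the median was 0 (0.28 within batch G709). Either count is 11.4% of the 35 members with a mean of at least 1 TPM, close to the share over all genes. Rab3b, a vesicle GTPase, was at 51.3, 0.184, 682, 326 and 169.9 TPM in VGT3+ cells, against 1478, 926, 2797, 3590.5 and 2749.7 TPM in Sst+ cells (difference -4.79, -3.13 within the batch), the one gene of this list without overlap. Snap25, a component of the fusion complex, ranged over 525 to 922 TPM in VGT3+ cells and over 507 to 2093 TPM in Sst+ cells (difference -0.59). Rims1, an active zone scaffold, was at 3.33, 89.2, 149.9, 27.6 and 31.5 TPM in VGT3+ cells, against 1.46, 0, 12.3, 3.26 and 15.9 TPM in Sst+ cells (difference 2.90). Cplx2, a complexin, was at 75.1, 210.0, 274, 114 and 368 TPM in VGT3+ cells, against 24.7, 81, 58.7, 45.8 and 61.8 TPM in Sst+ cells (difference 1.80), and only VGT3+ cell 1 fell under the highest Sst+ cell. Syn2, which tethers vesicles, was at 99.5, 103, 492, 565 and 568 TPM in VGT3+ cells, against 21, 122, 222, 139.9 and 157 TPM in Sst+ cells (difference 1.39, 2.42 within the batch), and the vesicle protein gene Sv2a at 316, 314, 455, 206 and 586 TPM in VGT3+ cells, against 131, 180.5, 225, 140.4 and 155 TPM in Sst+ cells (difference 1.11). Synaptotagmins, calcium-binding vesicle proteins, gave 3 of the 4, and values are given for 2. Syt13 was at 12.6, 67.9, 139, 66.4 and 62.1 TPM in VGT3+ cells, against 0, 0, 0, 53.2 and 47 TPM in Sst+ cells, and Syt6 at 0, 0, 179, 64.4 and 42.9 TPM in VGT3+ cells, against 0, 0, 0, 0.695 and 0 TPM in Sst+ cells. Rims1, Cplx2, Syn2, Sv2a and both synaptotagmins were chosen after their values were seen.

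Neurexins are adhesion molecules of the presynaptic membrane, and bind partners across the synaptic cleft. Of 51 neurexin and partner genes, 11 were higher in Sst+ cells by 2 or more and 4 in VGT3+ cells, with a median of -0.11 (-0.78 within batch G709, -0.49 to 0 when any 1 cell was left out, 0 without Sst+ cell 5). Of the 44 members averaging 1 TPM or more these were 25% and 9.09%, against 8.56% and 8.46% of all genes. Nxph1, a secreted ligand of alpha-neurexins, was at most 0.0342 TPM in VGT3+ cells, against 31.4, 175, 1.88, 119 and 105 TPM in Sst+ cells (difference -5.51). Lphn2, the receptor latrophilin-2, was listed at 0 in all VGT3+ cells and was at 2.63, 74.8, 43.4, 33.4 and 45.2 TPM in Sst+ cells (difference -4.84). These 2 genes were the only ones of the list without overlap. Car10, which was not on the list, gave a further neurexin ligand confined in these 10 cells to Sst+ cells. Igsf21, an adhesion molecule of inhibitory synapses that binds neurexin-2, was at 0, 6.03, 0, 0 and 5.43 TPM in VGT3+ cells, against 114, 81.2, 42.9, 61.2 and 3.57 TPM in Sst+ cells (difference -4.26), and Tenm2, a teneurin partner of latrophilins, at 24.1, 0.97, 2.32, 0.837 and 8.33 TPM in VGT3+ cells, against 99.7, 10.4, 89, 34.1 and 32.4 TPM in Sst+ cells (difference -3.08). Of the neuroligins, Nlgn1 was at 3.89, 0.0363, 0, 24.1 and 22.7 TPM in VGT3+ cells and at most 0.00831 TPM in Sst+ cells (difference 2.31, 1.72 without VGT3+ cell 4), Nlgn2 was at 13.7, 6.21, 0.201, 2.21 and 6.27 TPM in VGT3+ cells, against 40.6, 18.4, 29.7, 12.5 and 8.38 TPM in Sst+ cells (difference -2.01, -1.498 without VGT3+ cell 3), and Nlgn3 at 0.304, 40.7, 159.6, 0 and 24.2 TPM in VGT3+ cells, against 31.8, 82, 2.91, 20.5 and 55.4 TPM in Sst+ cells (difference -1.18, -2.40 within the batch, -0.29 to -2.12 when any 1 cell was left out). All 3 overlapped between the types, and 41.2% of the exon bases of Nlgn3 overlap the gene model Gm21986. Lrrtm1, a postsynaptic neurexin partner, was at 69.9, 37, 0, 97.6 and 57.4 TPM in VGT3+ cells, against 0.0569, 131, 0, 4.24 and 0.0401 TPM in Sst+ cells (difference 2.86). Clstn1, a calsyntenin, overlapped at 94.3 to 200.1 TPM in VGT3+ cells and 24.7 to 137 TPM in Sst+ cells. The neurexin gene Nrxn3 differed by 1.02 and Nrxn2 by -1.01 (0.76 and -1.21 within the batch), both with overlap and below the size of 2.

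Cadherins and guidance molecules held several genes that separated the cells. Of 69 genes, 15 were higher in Sst+ cells by 2 or more and 8 in VGT3+ cells, 5 and 1 of them without overlap, and the median was -0.083 (0 within batch G709, -0.39 to 0 when any 1 cell was left out). Among the 53 members averaging 1 TPM or more these were 28.3% and 15.1%, against 8.56% and 8.46% of all genes. Beside Cdh9, Cdh13, a cadherin without a cytoplasmic part, was at 1.29, 79.7, 0, 24.9 and 0.166 TPM in VGT3+ cells, against 179, 152, 285, 223 and 218 TPM in Sst+ cells (difference -5.21). Its values were scattered in VGT3+ cells and close together in Sst+ cells. Cdh11 ran the other way, at 22.5, 128, 381, 71.2 and 103 TPM in VGT3+ cells, against 0, 19.7, 0, 7.32 and 1.56 TPM in Sst+ cells (difference 4.85). The Slit receptors Robo1 and Robo2 were both higher in Sst+ cells. Robo2 was listed at 0 in all VGT3+ cells and was at 29.8, 23.1, 61.4, 13.1 and 11.3 TPM in Sst+ cells (difference -4.59), and Robo1 was at 0.0138, 10.4, 0, 0 and 7.24 TPM in VGT3+ cells, against 14.9, 148, 37, 25.4 and 11.3 TPM in Sst+ cells (difference -3.65). Unc5c, a receptor for netrin, was at 0, 1.48, 0, 0 and 0 TPM in VGT3+ cells, against 2.04, 14.4, 57.2, 3.03 and 9.77 TPM in Sst+ cells (difference -3.11). Robo1 and Unc5c complete the 5 that did not overlap.

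Further cadherin and guidance genes differed with overlap. The cadherin gene Cdh7 was at 0.0208, 0, 0.0331, 0 and 0 TPM in VGT3+ cells, against 83.6, 0.0111, 47.2, 16 and 16.6 TPM in Sst+ cells (difference -4.03). Its relative Cdh8 was at 8.4, 22.8, 1.12, 0 and 28.3 TPM in VGT3+ cells, against 54.2, 14, 77.8, 66.3 and 116 TPM in Sst+ cells (difference -3.04). Plxnc1, a semaphorin receptor, was listed at 0 in all VGT3+ cells and was at 33.5, 0, 68.1, 15.5 and 36.3 TPM in Sst+ cells (difference -4.10). Sema3c, a secreted semaphorin, was at 36.1, 269, 216, 0 and 108 TPM in VGT3+ cells, against at most 0.0242 TPM in Sst+ cells (difference 5.55), and the protocadherin gene Pcdh20 at 0.019, 88, 10.3, 36.6 and 16.8 TPM in VGT3+ cells, against at most 0.0313 TPM in Sst+ cells (difference 3.87). Each of these 5 genes but Cdh8 had 1 cell at or near 0 in the type where it was higher, and all 5 were chosen after their values were seen.

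**Figure D3:**
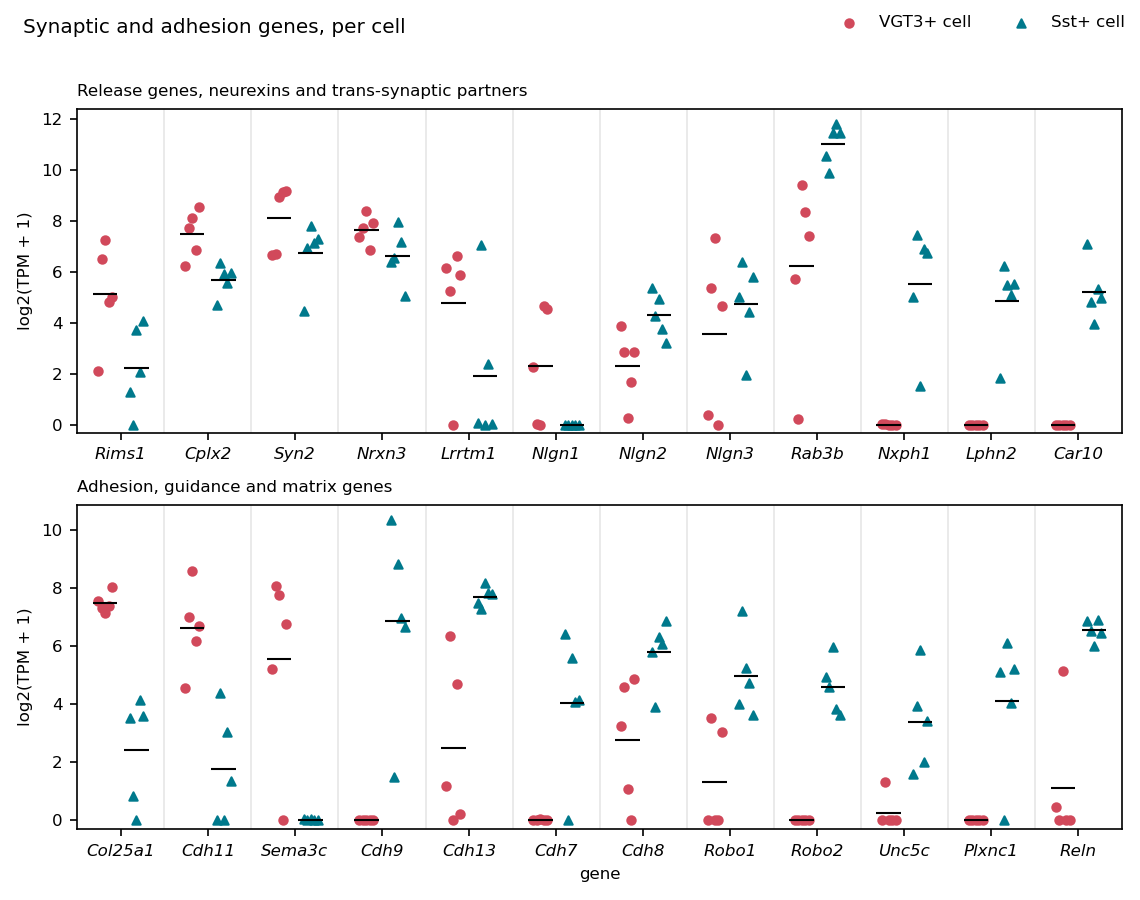
Points show log2(TPM + 1) of single cells (VGT3+ circles left, Sst+ triangles right of each gene) with black lines at the mean of 5 cells. In the upper panel Rims1, Cplx2, Syn2 and Nrxn3 overlap, while Nxph1, Lphn2 and Car10 are near 0 in all VGT3+ cells, and in the lower panel Col25a1 and Cdh11 stand above all Sst+ cells and Cdh9, Cdh13, Robo1, Robo2, Unc5c and Reln below all of them in VGT3+ cells.

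Growth factor and activity genes separated few cells. Of 28 genes of growth factors and neuregulin signalling, Erbb4 was higher in VGT3+ cells by 2 or more and Bdnf and Nrg3 in Sst+ cells, and no member was free of overlap. Of the 17 averaging 1 TPM or more these were 5.88% and 11.8%, against 8.46% and 8.56% of all genes. Erbb4, the neuregulin receptor of interneurons, was at 27.5, 27.5, 74.8, 0 and 26.8 TPM in VGT3+ cells, against 0, 11.5, 0, 0 and 0 TPM in Sst+ cells (difference 3.41, 1.67 within batch G709). Igf1, insulin-like growth factor 1, was at 240.2, 57.8, 481, 308 and 297 TPM in VGT3+ cells, against 181, 91.4, 80.8, 62.2 and 118 TPM in Sst+ cells (difference 1.19). Fgf12, an intracellular partner of sodium channels, had a difference of -1.18 with overlap. Among 15 immediate early genes, which neurons switch on after activity, Jun, Egr1 and Dusp1 were higher in Sst+ cells by 2 or more, and 6 were listed at 0 in all cells. The 3 were 37.5% of the 8 averaging 1 TPM or more, against 8.56% of all genes. Egr1 was at 0.302, 0, 0, 0 and 0 TPM in VGT3+ cells, against 96.5, 7.76, 0, 7.65 and 6.22 TPM in Sst+ cells (difference -3.06), and Jun at 2.49, 0, 0, 0 and 0 TPM in VGT3+ cells, against 118, 3.15, 32.1, 21.2 and 0 TPM in Sst+ cells (difference -3.33). Fosl2 was above 1 TPM in 2 cells of each type (difference -0.64, 0.63 within the batch). Of 11 perineuronal net genes, the components of the sheath around some interneurons, Bcan was higher in Sst+ cells (16.7% of the 6 averaging 1 TPM or more, against 8.56% of all genes). Hapln1, a link protein of that net, overlapped, at 48.4 to 445 TPM in VGT3+ cells and 15.7 to 186 TPM in Sst+ cells, as did the proteoglycan gene Ncan, at 0 to 49.9 TPM in VGT3+ cells and 1.34 to 72 TPM in Sst+ cells (difference -0.49, 0.76 within the batch).

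Among metabolic and cytoskeletal genes, a few separated the cells. Ldhb, a lactate dehydrogenase subunit, was at 1772, 1661, 936, 1283 and 412 TPM in VGT3+ cells, against 1803, 2443, 1896, 2655 and 2926 TPM in Sst+ cells, so every Sst+ cell lay above every VGT3+ cell at a difference of only -1.09. Ldha, the other subunit, was at 105, 93.3, 554, 53.5 and 87.6 TPM in VGT3+ cells, against 372, 255, 493, 533 and 332 TPM in Sst+ cells (difference -1.66, -2.47 within the batch, outside the naming rule). Hk1, the first enzyme of glucose use, was at 5.07, 0.99, 2.18, 0 and 1.2 TPM in VGT3+ cells, against 8, 16.1, 6.57, 5.65 and 36 TPM in Sst+ cells (difference -2.35, -1.95 without Sst+ cell 5). Tpi1, a glycolytic isomerase, overlapped at 875 to 2754 TPM in VGT3+ cells and 1100.2 to 2011 TPM in Sst+ cells, and Gapdh at 133 to 368 TPM in VGT3+ cells and 77.4 to 197 TPM in Sst+ cells. Over the 16 glycolysis genes the median was 0.20 (0.42 within batch G709, -0.053 without VGT3+ cell 5), and 2 were higher in Sst+ cells by 2 or more. The 2 were 12.5% of the 16, against 8.56% of all genes. The 13 mitochondrially encoded genes had a median of 0.90 (1.23 within the batch), with 12 positive differences and none of 2 or more. Its most abundant members, mt-Nd1 and mt-Cytb, had differences of 0.72 and 0.36 and overlapped. All 37 mitochondrial genes, these 13 included, together took 12.2, 7.35, 21.0, 27.7 and 18.7% of the TPM of VGT3+ cells, against 10.1, 7.67, 7.701, 10.0 and 9.17% in Sst+ cells. Of 18 tubulin and neurofilament genes, 4 were higher in Sst+ cells (Nefl, Nefm, Nefh and Tubb4a) and none in VGT3+ cells, which was 22.2% of the list, against 8.56% of all genes. Nefm, a neurofilament subunit, was at most 0.018 TPM in VGT3+ cells and at 3.55, 0, 5.5, 32 and 47.2 TPM in Sst+ cells, and Nefl at most 0.0309 TPM in VGT3+ cells and 0.153, 0.066, 0.153, 79.8 and 69.1 TPM in Sst+ cells, where the separation rested on values near 0 in 3 of the 5 Sst+ cells (difference -2.58, -1.64 without Sst+ cell 4 and -1.69 without Sst+ cell 5). Of the exon bases of Nefl 32.8% overlap Nefm, and of those of Nefm 19.2% overlap Nefl, on opposite strands. Tuba1a, a tubulin of growing neurons, ranged over 2948 to 10588 TPM in VGT3+ cells and over 5885 to 7097 TPM in Sst+ cells (difference -0.23), and Stmn2, a regulator of microtubules, at 852 to 3233 TPM in VGT3+ cells and 1655 to 2728 TPM in Sst+ cells (difference -0.81).

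**Figure D4:**
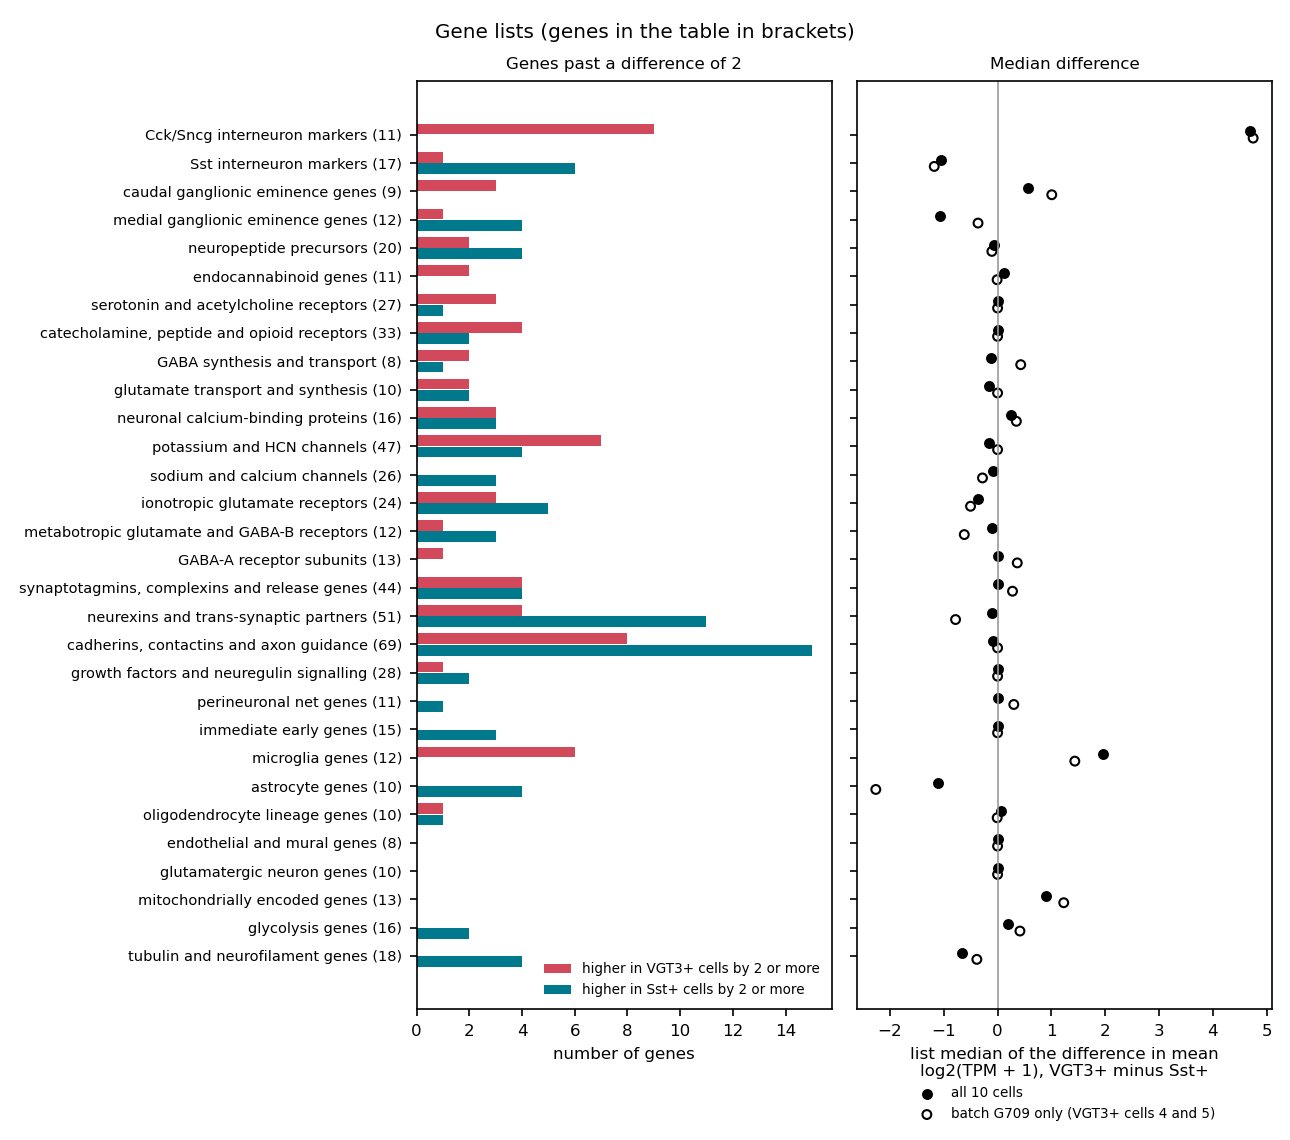
Left, the number of genes of each list past a difference of 2, with VGT3+ bars above Sst+ bars; right, the median over the list of the difference in mean log2(TPM + 1), with all cells (filled) and with only VGT3+ cells 4 and 5 (open). The Cck/Sncg markers lie farthest to the right, at 4.68, and most channel, receptor and release lists lie near 0 although single members differ widely.

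Transcripts of glia were present in these cytosol samples and unequal between cells. Of 12 microglia genes, 6 were higher in VGT3+ cells by 2 or more (50%, against 8.46% of all genes) and none in Sst+ cells. Their median difference was 1.96 (1.44 within batch G709, 1.12 without VGT3+ cell 1, 3.22 without VGT3+ cell 5, 0.14 without VGT3+ cells 1 and 4). Their summed level was 24838, 823, 6201, 20982 and 162 TPM in VGT3+ cells, against 0.545, 1696, 313, 5616 and 2233 TPM in Sst+ cells, so VGT3+ cell 5 held less than 4 of the Sst+ cells. Tyrobp, an adaptor protein of microglia, was at 13826, 652, 2616, 9268 and 91.4 TPM in VGT3+ cells, against 0.306, 0.593, 0.61, 3148 and 1016 TPM in Sst+ cells, and the protease gene Ctss at 5694, 86.4, 1627, 3997 and 0 TPM in VGT3+ cells, against 0.127, 0.246, 0, 939 and 0.269 TPM in Sst+ cells. The complement gene C1qb had a difference of 1.25 that turned to -0.45 within the batch. The 10 astrocyte genes summed to 399 to 4397 TPM in VGT3+ cells and 327 to 5232 TPM in Sst+ cells. Their median difference was -1.10 (-2.26 within the batch, -0.10 without Sst+ cell 1, which held the most) and 4 genes were higher in Sst+ cells (Aqp4, Slc1a3, Slc1a2 and Fabp7). The 4 were 40% of the 10, against 8.56% of all genes. Aldoc, an aldolase of astrocytes, ranged over 155 to 3021 TPM in VGT3+ cells and over 178 to 1104 TPM in Sst+ cells. Slc1a3, an astrocytic glutamate transporter, was at most 0.285 TPM in VGT3+ cells and at 220.0, 0, 0.967, 0.67 and 198 TPM in Sst+ cells. Fabp7, a lipid carrier of immature astrocytes, was at 474, 115, 839.7, 0 and 88 TPM in VGT3+ cells, against 2049, 827, 373, 78.2 and 548 TPM in Sst+ cells (difference -2.54, -0.95 without VGT3+ cell 4). The 10 oligodendrocyte lineage genes summed to 5.88 to 611 TPM in VGT3+ cells and 59.1 to 1299 TPM in Sst+ cells. Mbp, the myelin basic protein gene, was at 27.2, 0.029, 0, 46.2 and 221 TPM in VGT3+ cells, against 303, 258, 11.5, 116 and 1042 TPM in Sst+ cells (difference -3.72, -0.68 within the batch). It was the 1 member higher in Sst+ cells by 2 or more, and Sox10 was the 1 higher in VGT3+ cells. Each was 16.7% of the 6 averaging 1 TPM or more, against 8.56% and 8.46% of all genes. The 8 endothelial and mural genes summed to at most 22.3 TPM in any cell, and of 10 glutamatergic neuron genes 6 were listed at 0 in all cells. Of the last, Nrgn reached 34.8 TPM in VGT3+ cell 2 and 115 TPM in Sst+ cell 1 and Neurod6 at 67.9 TPM in VGT3+ cell 1, and Pdgfrb and Tek, of mural and endothelial cells, reached 0.0148 and 0 TPM in VGT3+ cells and 22.3 and 5.11 TPM in Sst+ cells. The part of glial RNA in the differences of other genes was not tested. Without VGT3+ cells 1 and 4, which held the most microglial RNA, the counts past 2 were 1481 for VGT3+ and 1157 for Sst+ cells, and those without overlap 293 and 204 with 3 VGT3+ cells left, a setting chosen after the values were seen.

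**Figure D5:**
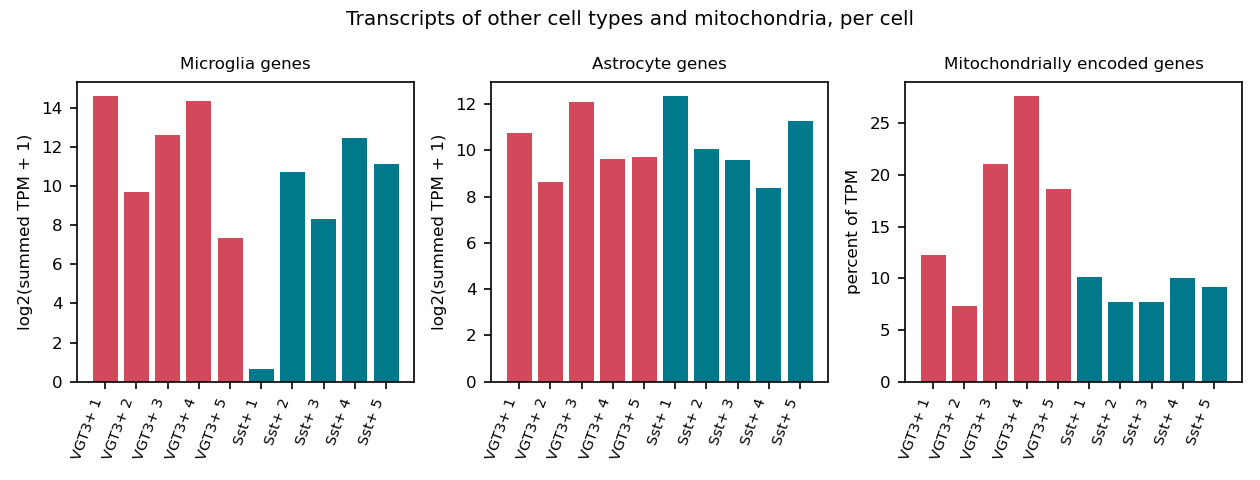
Bars give, per cell, the summed level of 12 microglia genes and 10 astrocyte genes as log2(TPM + 1) and the percent of TPM on mitochondrial genes, with VGT3+ cells left of Sst+ cells. VGT3+ cells 1 and 4 are highest for microglia genes, at 24838 and 20982 TPM, and Sst+ cell 1 is at 0.545 TPM, while all VGT3+ cells but cell 2 exceed all Sst+ cells in mitochondrial share.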

How the data were processed

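Cytosol of 5 VGT3+ and 5 Sst+ interneurons was analysed as 1 library per cell. The authors amplified cDNA with a SMART-Seq HT kit, which does not mark strand, built libraries with Nextera XT, aligned the trimmed read pairs to GRCm38 with HISAT2 2.1.0 (--no-mixed, --no-discordant) and counted reads with HTSeq on the Ensembl annotation, release 78. The HTSeq strand setting is not given in the sources used here. The deposited unit is TPM, which the authors computed as counts over gene length scaled to 1000000 per cell, with no scaling between cells. TPM hold no counts, so no counting interval was given. The 5 Pv+ columns were left out.

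For genes averaging 1 TPM or more over the 10 cells, differences of mean log2(TPM + 1), pseudocount 1, were taken in Python 3.11.15 (pandas 2.3.3, numpy 2.4.6, and matplotlib 3.10.9 for plots). As 125 symbols belong to several genes, Ensembl identifiers were used for matching. Lengths and overlaps came from GENCODE M21. Depth was derived from the TPM worth of 1 read, a step added once values were known, and 72.6 to 76.2% of values under 50 reads lay within 0.01 of a whole number.

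Named were Slc17a8, Cnr1, Sst, Nrxn2, Nrxn3, Sncg, Gapdh and Nlgn3, the 12 largest differences in each direction among genes without overlap and past 2 within batch G709, and, for each of 30 gene lists, up to 4 members without overlap of largest difference and the 2 of highest mean. This gave 99 genes. Values of 53 further genes were chosen after they were seen, and other list members are named where they passed 2. The cells, lists and rules were chosen with earlier results of these data known. The gene Drd1 of one list was not analysed here, and not every gene that the rule picks is reported. Other settings tried were the cells of batch G709 alone, each cell left out in turn, and other scalings, pseudocounts, summaries, sizes and filters.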

Additional observations from a re-analysis of the deposited data

Results flagged for a closer look

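In groups of 5 cells, a cell was singled out when its gap to the nearest other cell exceeded 0.71 of the whole range of log2(TPM + 1), or of the number of genes for that measure. Groups whose highest cell lay under 1 TPM were passed over. Of 250 groups examined, 39 had such a cell. For normally distributed values chance gives about 1 in 20 groups, but many of these groups hold cells listed at 0, so the number that chance would give here is not known. The gap as a share of the range is given for each.

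Sst+ cell 4 stood above the other Sst+ cells in several genes that were otherwise near 0 in that type, which were Sln (1), Sez6 (0.966), Pex5 (0.964), Calb1 (0.982), Ctss (0.965) and Tek (1). It was also highest in the number of genes above 0 (0.712). Sst+ cell 2 was highest in Nos1 (0.992), Gabra5 (0.979) and Erbb4 (1), and Sst+ cell 5 in Pdgfrb (1). Sst+ cell 1 was highest in Nrgn (1) and lowest in Fxyd6 (0.786), Syn2 (0.744), Lphn2 (0.74) and C1qb (0.753). Sst+ cell 3 was lowest in Vgf (0.914) and Abhd12 (0.871).

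Among VGT3+ cells, cell 1 was highest in Rnu1a1 (1), Grik1 (0.839), Jun (1) and Neurod6 (0.898) and lowest in Shisa9 (0.725). VGT3+ cell 2 was highest in Tmed3 (0.98), Lypd6 (1), Elfn1 (1), Unc5c (1), Nrgn (1) and Stmn2 (0.761) and lowest in Cacng3 (0.775). VGT3+ cell 3 was highest in Reln (0.911) and Ldha (0.711) and lowest in Abhd12 (0.739), Gabbr1 (0.779) and Lrrtm1 (0.793). VGT3+ cell 4 was lowest in Nr2f2 (0.713), Dlx6os1 (0.81), Kcnip1 (0.725) and Erbb4 (0.768).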

How the results depend on the processing

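The counts past a difference of 2 (1040 higher in VGT3+ and 1052 in Sst+ cells) ranged from 918 to 1267 and from 894 to 1331 when any 1 cell was left out, and the counts without overlap (79 and 116) from 96 to 169 and from 125 to 223, since fewer cells overlap less often by construction. Within batch G709, with 2 VGT3+ cells, they were 2244 and 1420 past 2, and 995 and 479 without overlap. Without VGT3+ cells 1 and 4, added after the values were seen, the last 2 counts were 293 and 204. A pseudocount of 0.1 gave 2171 and 2351 past 2, the log2 ratio of mean TPM 2234 and 2227, a size of 1 gave 2958 and 3180, and a size of 3 gave 347 and 333. Rescaling, size factors, medians over cells and the 2 other filters left all counts within 1.5 times.

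The median difference of the Cck/Sncg markers was 6.54 with a pseudocount of 0.1, 6.28 as a log2 ratio of means and 6.02 without VGT3+ cells 1 and 4, and that of the Sst markers -2.26 and -2.53 under the first 2 settings. For neuropeptide precursors it was -0.39 with a pseudocount of 0.1, -0.021 as a log2 ratio, 0 with medians, -0.11 within the batch, and -0.095 to 0 when 1 cell was left out, and for immediate early genes -0.25 to 0 when 1 cell was left out. The cause of these shifts was not tested. Among single genes, Abhd6 was reversed within the batch (-0.24) and Neto1 without VGT3+ cells 1 and 4 (0.41). No paired analysis was possible because no test was made and no animal or culture ties a VGT3+ cell to an Sst+ cell of the same number. Depth limits values near 0.259 TPM and below for a gene of 2000 bases.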
